A study of Mus musculus with 36 samples.

Results

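The 39 Hox cluster genes in the deposited expression table were examined across mouse models of bladder cancer. They were taken as every row whose gene symbol is Hoxa, Hoxb, Hoxc or Hoxd followed by a position number alone, which gave 39 of 21705 genes: 11 of the Hoxa cluster, 10 of Hoxb, 9 of Hoxc and 9 of Hoxd. Antisense and other non-coding genes of the clusters carry longer symbols and are not members.

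Hox genes encode homeodomain transcription factors that lie side by side in clusters on separate chromosomes. In the embryo the genes at one end of a cluster, with low position numbers, are used towards the head, and those at the other end, with high numbers, towards the tail, so that the combination expressed marks position along the body. Genes with the same number in different clusters are paralogues, and the posterior genes pattern the hindgut, the limbs and the urogenital tract, of which the bladder is a part. In the text below, positions 1 to 3 are called anterior, 4 to 8 central and 9 to 13 posterior.

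The study profiled 36 RNA-seq libraries of bladder tumours and tumour cell cultures. The UPPL primary tumours (n = 9) came from mice carrying Upk3a-CreERT2, p53f/f and Rosa26LSL-Luc with a further floxed allele, labelled untreated, in which the promoter of the urothelial gene Upk3a drives a tamoxifen-inducible Cre that deletes the floxed alleles. The BBN primary tumours (n = 11) came from mice whose genotype is labelled Ctrl and that received N-butyl-N-(4-hydroxybutyl)nitrosamine, a bladder carcinogen. Tumours derived from cell lines were grown from UPPL1541 (n = 4, labelled with the UPPL genotype), BBN963 (n = 2) and MB49 (n = 4), the last 2 labelled Ctrl, and all 3 labelled untreated. MB49 is an established mouse bladder cancer line. Single cultures of UPPL1541, BBN963 and MB49 and 3 KT cultures (KT1044, KT1970 and KT1975) were labelled Ctrl and untreated, including the UPPL1541 culture, and the sources used here do not say what KT stands for. The table names these 3 columns KAT with the same numbers, and they were matched to the KT titles by number. Each set of line-derived tumours comes from 1 line, and the labels do not say which tumours came from separate animals, so p-values measure only the spread between these libraries, part of which may be technical.

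Values are RSEM gene estimates scaled within each library to a 75th percentile of 1000 over the genes above 0. They are called units here, and levels are compared between genes per kilobase of transcript except where they are said to be unscaled. Reads were recovered from the steps of the values in all 36 libraries, where 92.0 to 96.3% of values came out whole within 0.02, with totals of 9.29 M to 17.9 M reads. In the tumour libraries the most frequent low value was worth 2 to 19 reads, against 1 read in the cultures, and in 5 libraries it was 10 reads or more: BBN963 line-derived tumour 1, MB49 line-derived tumour 1 and the primary tumours BBN962, UPPL1595 and UPPL1597. That most frequent low value was worth 11.4 to 24.1 units there, so these 5 libraries, called coarse-valued below, measure low genes in coarse steps. BBN963 line-derived tumour 2 and the primary tumour BBN973, at 9 reads, lay just under this cut. In units they were similar (11.0 and 13.1). Trp53, the gene deleted in the UPPL model, ranged from 30.4 to 158 units in UPPL primary tumours and from 796 to 2266 in BBN primary tumours. The UPPL1541 culture, labelled Ctrl, had Trp53 at 50.4 units, against 1059 to 3017 in the other 5 cultures. Summed values of 12 urothelial and epithelial markers were 130229 to 602591 units in UPPL and 198602 to 514715 in BBN primary tumours. They were 16194 to 26252 in MB49 line-derived tumours and 7609 in the MB49 culture, where Epcam, Trp63, Upk1b, Upk2 and Upk3a were listed at 0. In BBN963 line-derived tumours Upk1a, Upk1b, Upk2 and Upk3a were listed at 0. In bulk tumours, fewer cells of a type and less RNA per cell cannot be told apart.

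The sequences just upstream of 6 Hox genes are shown first: the 4 posterior Hoxa genes, neighbours that were called between the primary models, and Hoxb8 and Hoxd13, genes of other clusters that did not pass there. RefSeq promoter windows on GRCm38.p6, a later build than the mm9 build of the deposited values, were matched by symbol to 22 of the 39 members (24 windows, as a gene may have more than 1 start). Hoxb6 and Hoxb9 were among those not matched. The 250 bases before each start are printed 5′ to 3′ on the strand of the gene. Capitals mark matches on either strand to 5 short motifs. The TATA box was searched with the letters TATAAA and the CCAAT box with the letters of its name. For the GC box the search used GGGCGG, and for a CDX-like motif it used TTTATG. A HOX-PBX-like motif was searched with the pattern TGATNNAT, in which N is any base. Matches may overlap each other, as do the neighbouring GC boxes and the 2 TATA boxes before Hoxd13.
Hoxa9, chr6:52227371-52227620, minus strand: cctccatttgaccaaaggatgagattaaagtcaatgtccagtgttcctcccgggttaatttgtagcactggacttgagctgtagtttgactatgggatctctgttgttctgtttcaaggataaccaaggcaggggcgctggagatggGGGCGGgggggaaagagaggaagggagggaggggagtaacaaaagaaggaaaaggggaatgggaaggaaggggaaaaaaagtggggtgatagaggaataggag
Hoxa10, chr6:52240855-52241104, minus strand: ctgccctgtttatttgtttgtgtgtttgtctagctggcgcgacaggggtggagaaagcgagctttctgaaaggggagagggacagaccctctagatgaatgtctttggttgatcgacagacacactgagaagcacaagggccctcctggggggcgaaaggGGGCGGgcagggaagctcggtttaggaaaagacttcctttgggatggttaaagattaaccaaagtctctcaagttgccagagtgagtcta
Hoxa10, chr6:52234940-52235189, minus strand: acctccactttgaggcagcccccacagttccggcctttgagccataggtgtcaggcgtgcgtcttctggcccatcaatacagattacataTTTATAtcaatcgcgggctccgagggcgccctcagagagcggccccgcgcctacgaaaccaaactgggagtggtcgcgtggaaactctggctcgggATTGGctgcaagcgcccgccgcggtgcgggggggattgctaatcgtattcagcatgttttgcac
Hoxa11, chr6:52245811-52246060, minus strand: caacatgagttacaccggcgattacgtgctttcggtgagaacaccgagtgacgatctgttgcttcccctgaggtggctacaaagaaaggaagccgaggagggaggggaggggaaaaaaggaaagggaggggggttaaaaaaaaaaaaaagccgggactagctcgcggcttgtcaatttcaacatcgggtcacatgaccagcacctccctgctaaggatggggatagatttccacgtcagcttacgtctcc
Hoxa13, chr6:52260881-52261130, minus strand: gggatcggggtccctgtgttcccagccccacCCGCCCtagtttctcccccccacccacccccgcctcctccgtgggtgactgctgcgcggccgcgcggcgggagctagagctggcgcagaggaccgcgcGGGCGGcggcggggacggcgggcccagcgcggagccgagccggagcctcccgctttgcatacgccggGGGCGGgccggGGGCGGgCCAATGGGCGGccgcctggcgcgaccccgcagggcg
Hoxb8, chr11:96281655-96281904, plus strand: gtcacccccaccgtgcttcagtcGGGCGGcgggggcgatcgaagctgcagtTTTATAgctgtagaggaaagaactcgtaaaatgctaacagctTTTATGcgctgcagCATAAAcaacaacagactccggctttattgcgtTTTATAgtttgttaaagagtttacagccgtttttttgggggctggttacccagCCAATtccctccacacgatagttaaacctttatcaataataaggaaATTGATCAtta
Hoxd13, chr2:74667975-74668224, plus strand: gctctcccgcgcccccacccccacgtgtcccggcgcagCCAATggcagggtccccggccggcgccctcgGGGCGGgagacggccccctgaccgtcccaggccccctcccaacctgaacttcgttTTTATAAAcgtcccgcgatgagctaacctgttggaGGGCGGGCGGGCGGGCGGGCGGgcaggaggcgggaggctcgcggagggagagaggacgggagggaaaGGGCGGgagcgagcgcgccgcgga
Of the posterior Hoxa windows, Hoxa9 holds 3 CpG dinucleotides and 1 GC box, Hoxa11 13 CpG and no match to the 5 motifs, and Hoxa13 35 CpG, 5 GC boxes and 1 CCAAT box. The upstream Hoxa10 window has 7 CpG and 1 GC box, and the downstream one 20 CpG with a TATA box and a CCAAT box. The Hoxb8 window, with 12 CpG, holds at least 1 match to each of the 5 motifs, and the Hoxd13 window has 31 CpG, 7 GC boxes, 2 overlapping TATA boxes and 1 CCAAT box. Over the 24 Hox windows the median was 12.5 CpG (range 2 to 35), against 6 over all 32851 windows, and the median GC content was 58.6% against 52.4%. A CCAAT box was found in 14 of 24 Hox windows and in 33.8% of all windows, a GC box in 10 and 32.7%, a CDX-like match in 5 and 10.8%, a TATA box in 4 and 12.4%, and a HOX-PBX-like match in 4 and 7.68%. These are matches of letters in 1 window per start and are given as a description.

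Across the 36 libraries, 35 of the 39 members reached 10 units in at least 1 library: all 11 Hoxa genes, 9 of 10 Hoxb, 7 of 9 Hoxc and 8 of 9 Hoxd. Hoxb1, Hoxc11 and Hoxd1 stayed under 10 units in every library and Hoxc12 was listed at 0 in all 36. Hoxb6 and Hoxb7 reached 10 units in all 36. A UPPL primary tumour had 17 to 21 members at 10 units or more (median 19) and a BBN primary tumour 11 to 29 (median 20).

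**Figure D1:**
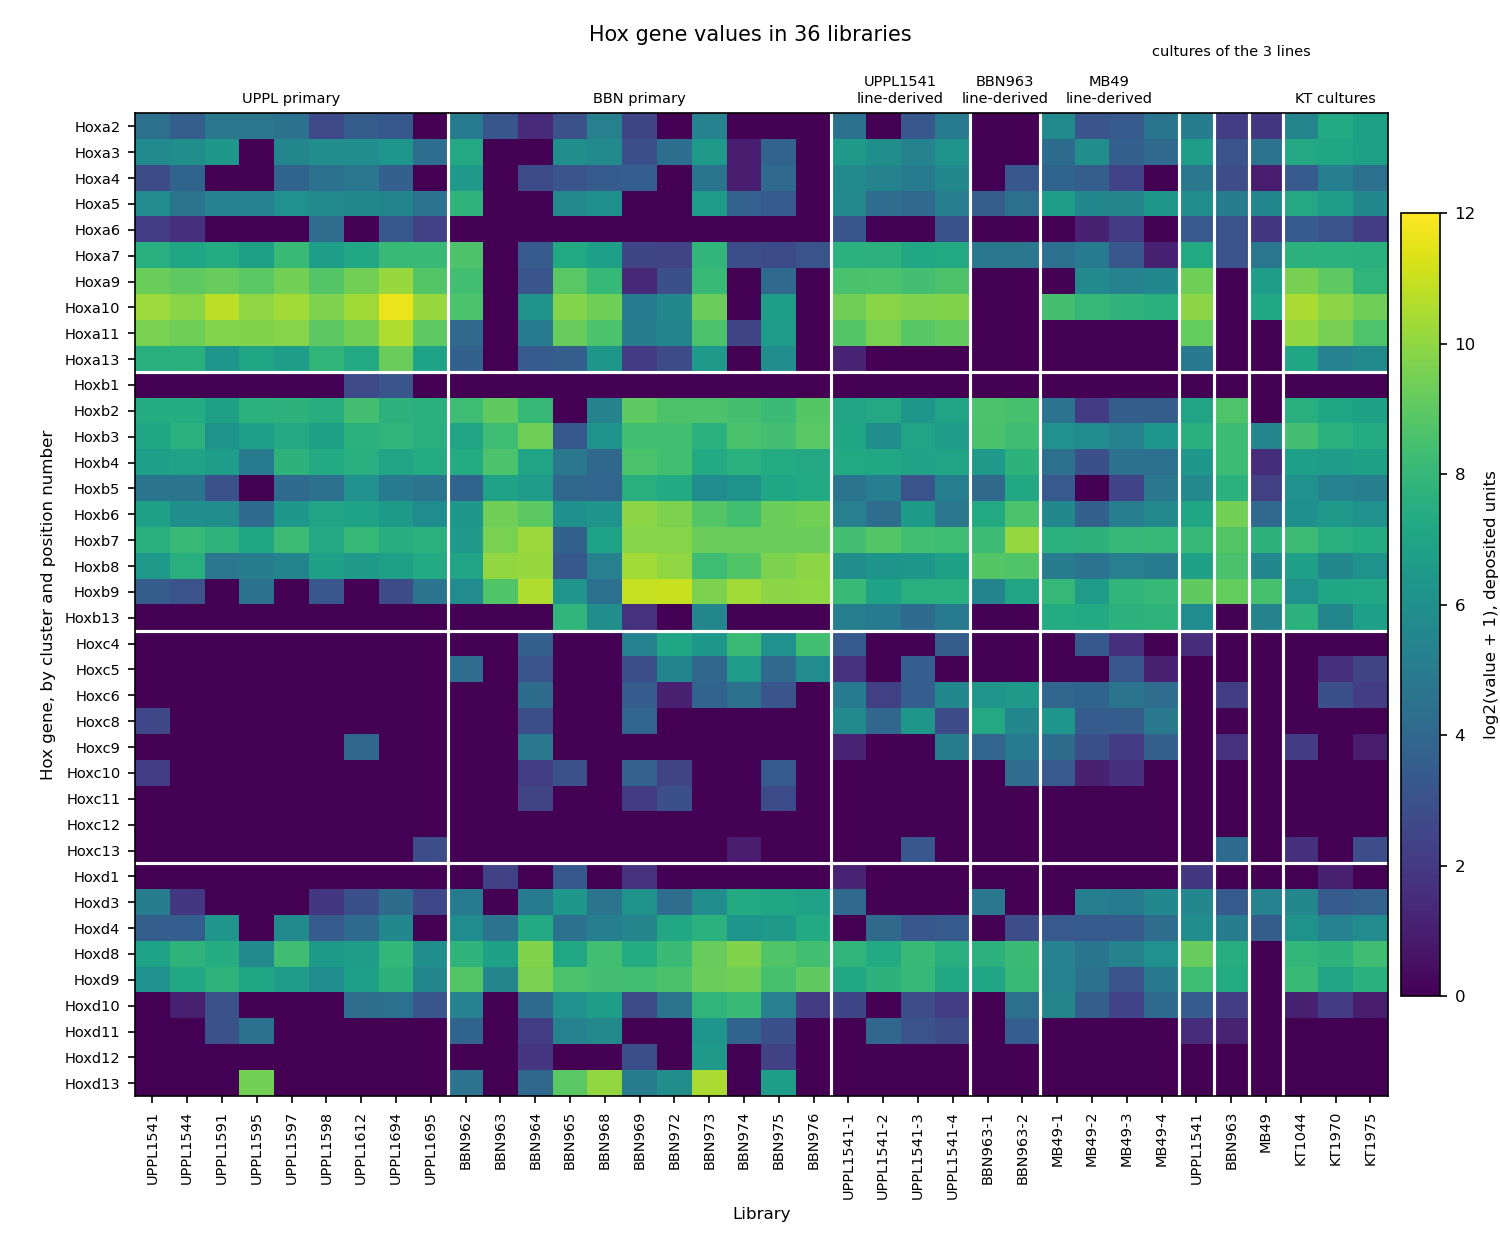
Colour gives log2(value + 1) of the Hox genes plotted (rows, by cluster and position) in each of the 36 libraries (columns, by group). Posterior Hoxa genes are high in all 9 UPPL primary tumours and low or at 0 in most BBN primary tumours, and most Hoxc genes are at or near 0 throughout.

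The 2 primary models differed in which cluster carried most of the Hox signal, while their totals overlapped. Summed values of all members were 3290 to 8492 units in UPPL and 3491 to 8304 in BBN primary tumours. Hoxa genes held 64.1 to 81.8% of that sum in UPPL primary tumours (median 69.0%) and 0.127 to 56.7% in BBN primary tumours (median 1.82%), with no overlap. Hoxb genes held 11.8 to 27.5% (median 20.7%) and 11.1 to 95.6% (median 71.3%), and Hoxd genes 3.30 to 22.3% (median 6.38%) and 4.10 to 48.0% (median 23.7%), and these shares overlapped. These shares are not corrected for transcript length. Per kilobase, the highest group medians in UPPL primary tumours were those of Hoxa10 (467 units per kb), Hoxa11 (336), Hoxa9 (182), Hoxb7 (155) and Hoxb2 (120). In BBN primary tumours they were Hoxb7 (478), Hoxb9 (376), Hoxb8 (303), Hoxb6 (259) and Hoxb2 (219). Hoxa10 had the highest unscaled value of any member in all 9 UPPL primary tumours, all 4 UPPL1541 line-derived tumours, the UPPL1541 culture and the 3 KT cultures.

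**Figure D2:**
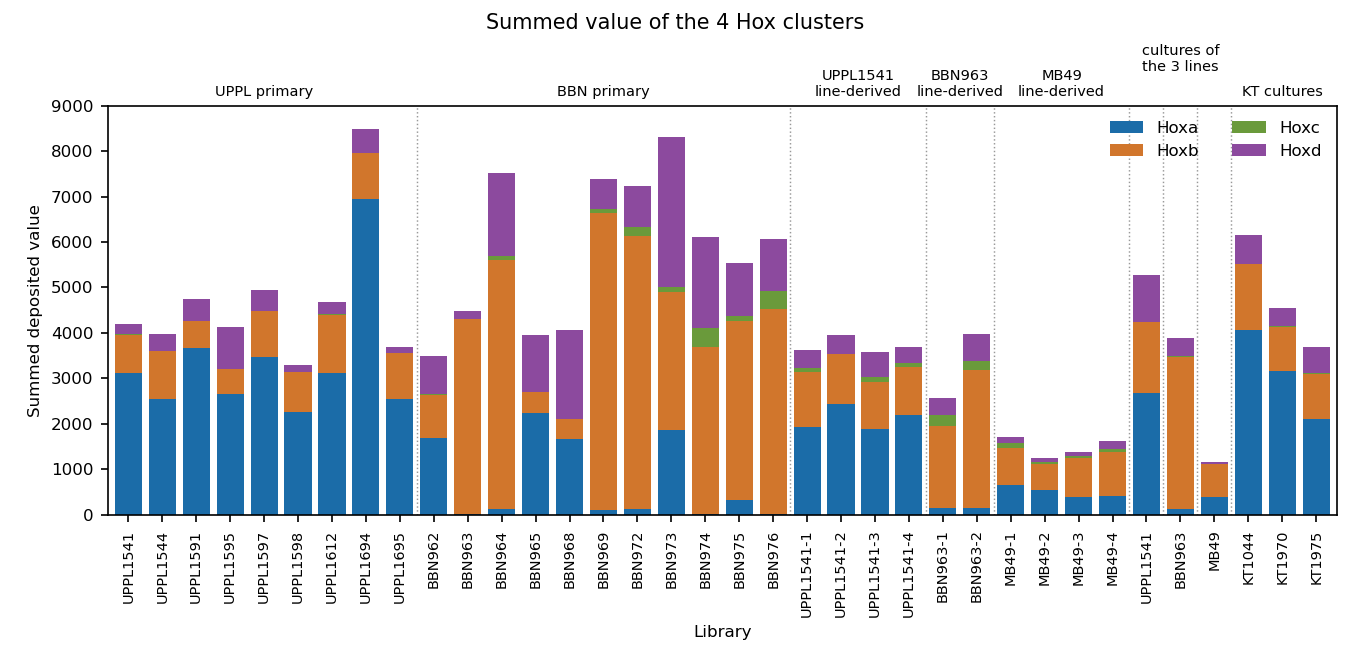
Stacked bars give the summed values (deposited units) of the Hoxa, Hoxb, Hoxc and Hoxd genes in each of the 36 libraries, by group. The Hoxa share is over 60% in each UPPL primary tumour, and in BBN primary tumours it runs from 0.127 to 56.7%.

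In the comparison of UPPL with BBN primary tumours, posterior Hoxa genes were higher and several Hoxb and Hoxd genes lower in UPPL. Of the 39 members, 23 passed the filter on low values and were tested (Hoxa 9, Hoxb 8, Hoxd 6), and 16 were not, among them all 9 Hoxc genes. limma called 5 members higher, all Hoxa, where 5.71% of the 12818 tested genes were called higher, and 8 lower (3 Hoxb, 5 Hoxd), where 12.8% were called lower. The other 10 tested members did not pass at an adjusted p of 0.05 (Benjamini-Hochberg over all genes tested). The 5 called Hoxa genes passed the filter on low values only through the UPPL tumours, in which they are high. Hoxb5, Hoxb9, Hoxd3, Hoxd4 and Hoxd10 passed it only with the BBN tumours, in which they are high. The p-values of these genes are conditioned on their being high there. The median log2 difference over all tested genes was -0.19. Over the tested members it was 3.11 for Hoxa, -1.42 for Hoxb and -2.80 for Hoxd.

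The 4 posterior Hoxa genes, which act in limb and genitourinary patterning, all rose in UPPL, and each was present in every UPPL primary tumour. Hoxa10 had 1197, 937, 1806, 1025, 1281, 811, 1270, 3237 and 1136 units in the tumours UPPL1541, UPPL1544, UPPL1591, UPPL1595, UPPL1597, UPPL1598, UPPL1612, UPPL1694 and UPPL1695. In the 11 BBN tumours it ran from 0 to 876 (median 67.5). The highest BBN value was exceeded in 8 of the 9 UPPL libraries, and 3 BBN tumours were listed at 0. Its means were 1411 ± 740 and 254 ± 324 units (SD, n = 9 and 11), and the difference of log2(value + 1) was 4.86 (SE 1.19, limma adjusted p = 0.0078).

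Hoxa9 ran from 441 to 1151 units in UPPL (median 587) and from 0 to 481 in BBN (median 8.10). The groups overlapped slightly, with 7 of 9 UPPL tumours above all BBN tumours. The log2 difference was 5.15 (SE 1.12, limma adjusted p = 0.00364). Hoxa11 ran from 509 to 1514 units (median 770) in UPPL and from 0 to 598 (median 33.0) in BBN, with 7 of 9 UPPL tumours above all BBN tumours. It was higher by 4.60 on the log2 scale (SE 0.995, limma adjusted p = 0.00346). Hoxa13, the last gene of the cluster, ran from 77.9 to 616 units (median 154) in UPPL and from 0 to 88.8 (median 9.90) in BBN, and 8 of 9 UPPL tumours were above all BBN tumours. Its log2 difference was 4.28 (SE 0.822, limma adjusted p = 0.00158).

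Hoxa7, a central gene next to Hoxa9, was the fifth Hoxa gene called. It ran from 101 to 283 units in UPPL (median 167) and from 0 to 399 in BBN (median 7.71). Here the highest value was in a BBN tumour, while most BBN tumours were low (log2 difference 3.11, SE 0.89, limma adjusted p = 0.0193). Its neighbours towards the anterior end did not pass: the log2 differences were 2.33 for Hoxa5 (limma adjusted p = 0.11), -0.03 for Hoxa4 (0.988), 1.70 for Hoxa3 (0.264) and 1.17 for Hoxa2 (0.363). Hoxa6 was not tested. It was listed at 0 in all 11 BBN primary tumours and reached at most 18.3 units in UPPL.

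**Figure D3:**
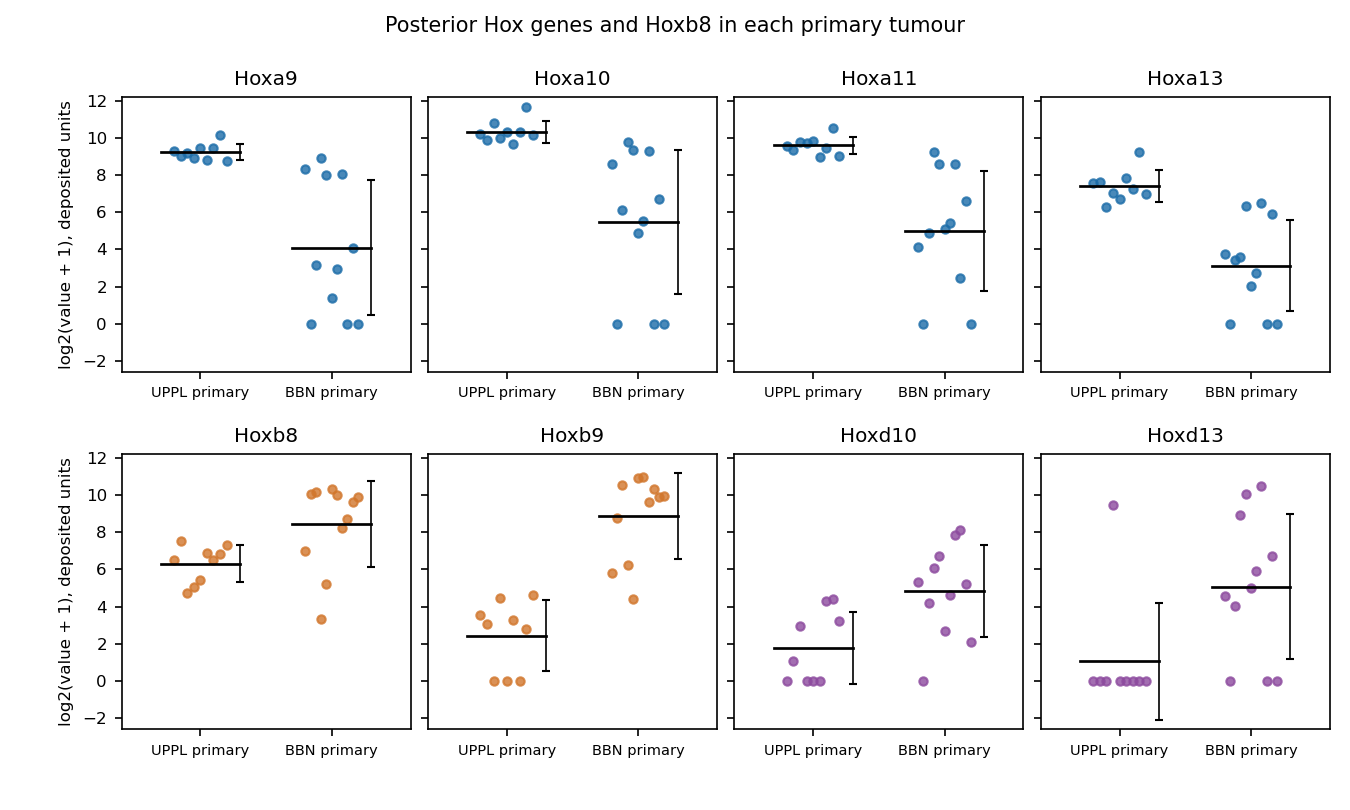
Each point is 1 primary tumour, with log2(value + 1) of the deposited units on the vertical axis, for 8 Hox genes in the UPPL (n = 9) and BBN (n = 11) groups; lines are group means and bars SD of the log2 values. UPPL tumours are tightly grouped at high Hoxa9, Hoxa10, Hoxa11 and Hoxa13, where BBN tumours run from 0 upwards, and Hoxb9 shows the opposite order.

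The BBN primary tumours were not uniform. Hoxa9 was 481 units in BBN965, 324 in BBN962, 271 in BBN973 and 260 in BBN968, and at most 16.2 in the other 7 tumours. Hoxa11 was 598, 388 and 387 units in BBN965, BBN968 and BBN973, and at most 95.4 in the others. Hoxd13, a posterior gene of another cluster, was 494, 1069 and 1436 units in the same 3 tumours, and at most 104 in the other BBN primary tumours. Hoxb13, the posterior paralogue known for its role in prostate and tail, was 241, 60.6 and 45.1 units in them and at most 2.36 in the other 8. So these 3 libraries carried posterior genes of 3 clusters together, while BBN963 and BBN976 had Hoxa9, Hoxa10, Hoxa11 and Hoxa13 all at 0. The 3 tumours were picked out after their values were seen, and no test was made of them. Their fibroblast marker sums were 15392, 2417 and 9951 units, within the range of the 11 BBN tumours (743 to 58608), and the part of cell makeup in the pattern was not tested.

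Among Hoxb genes the posterior member Hoxb9 differed most. In the UPPL tumours, in the order above, Hoxb9 was 10.8, 7.38, 0, 21.1, 0, 8.71, 0, 5.99 and 23.5 units. In the BBN tumours it ran from 20.2 in BBN968 to 2051 in BBN972, with a mean of 924 ± 736 (SD, n = 11). All but 2 UPPL tumours lay below every BBN tumour. Hoxb9 was lower in UPPL by -6.45 on the log2 scale (SE 0.893, limma adjusted p = 0.00016), the largest difference of any member in this comparison. The lowest BBN values of Hoxb9 were those of BBN968, BBN962 (53.9 units) and BBN965 (75.5), 3 of the 4 tumours in which Hoxa9 was highest.

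Hoxb6, a central gene, ran from 17.5 to 126 units in UPPL (median 83.0) and from 63.1 upwards in BBN (median 509, mean 478 ± 311). It fell in UPPL by 2.22 (SE 0.526, limma adjusted p = 0.00636), with 4 of 9 UPPL tumours below all BBN tumours. Hoxb5 was lower by -2.00 (SE 0.689), with an adjusted p of 0.046 just under the threshold. Hoxb8, between Hoxb7 and Hoxb9, had medians of 89.7 and 798 units and a log2 difference of -2.11 (SE 0.765) that just failed to pass (limma adjusted p = 0.0567). The anterior and other central Hoxb genes did not pass: 0.08 for Hoxb2 (limma adjusted p = 0.96), -0.46 for Hoxb3 (0.588), -0.19 for Hoxb4 (0.825) and -0.83 for Hoxb7 (0.357). Hoxb2 was at 111 to 343 units in UPPL and 0 to 532 in BBN. Hoxb13 was not tested and was listed at 0 in all 9 UPPL primary tumours.

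In the Hoxd cluster 5 of 9 genes fell in UPPL. Hoxd9, a posterior gene expressed in the hind part of the embryo, ran from 45.9 to 225 units in UPPL (median 108) and from 42.7 to 755 in BBN (median 391). It fell by 1.80 (SE 0.419, limma adjusted p = 0.0056), and the groups overlapped at the low end of BBN. Hoxd8 ran from 50.3 to 320 units (median 124) and from 114 to 839 (median 329), and fell by 1.28 (SE 0.404, limma adjusted p = 0.0316). Hoxd3, Hoxd4 and Hoxd10 were lower at low values: UPPL medians were 2.84, 11.6 and 1.05 units and BBN medians 58.2, 77.9 and 36.4, with log2 differences of -3.25, -2.56 and -3.05. Hoxd13 had a log2 difference of -4.02 and did not pass (SE 1.5, limma adjusted p = 0.0647). It was listed at 0 in 8 of 9 UPPL tumours and at 713 units in UPPL1595, 1 of the coarse-valued libraries. Hoxd11 (0 to 21.1 units in UPPL, 0 to 78.6 in BBN), Hoxd12 (0, and 0 to 87.4) and Hoxd1 were not tested.

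Hoxc genes were scarce in primary tumours. Hoxc4, Hoxc5 and Hoxc6 were listed at 0 in all 9 UPPL primary tumours. In BBN tumours Hoxc4 ran from 0 to 330.5 units (median 39.3), Hoxc5 from 0 to 97.6 (median 14.6) and Hoxc6 from 0 to 21.7 (median 1.12). With no filter on low values, Hoxc4 and Hoxc5 also passed as lower in UPPL. Hoxc8, Hoxc9, Hoxc10, Hoxc11 and Hoxc13 reached at most 27.0 units in any primary tumour.

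**Figure D4:**
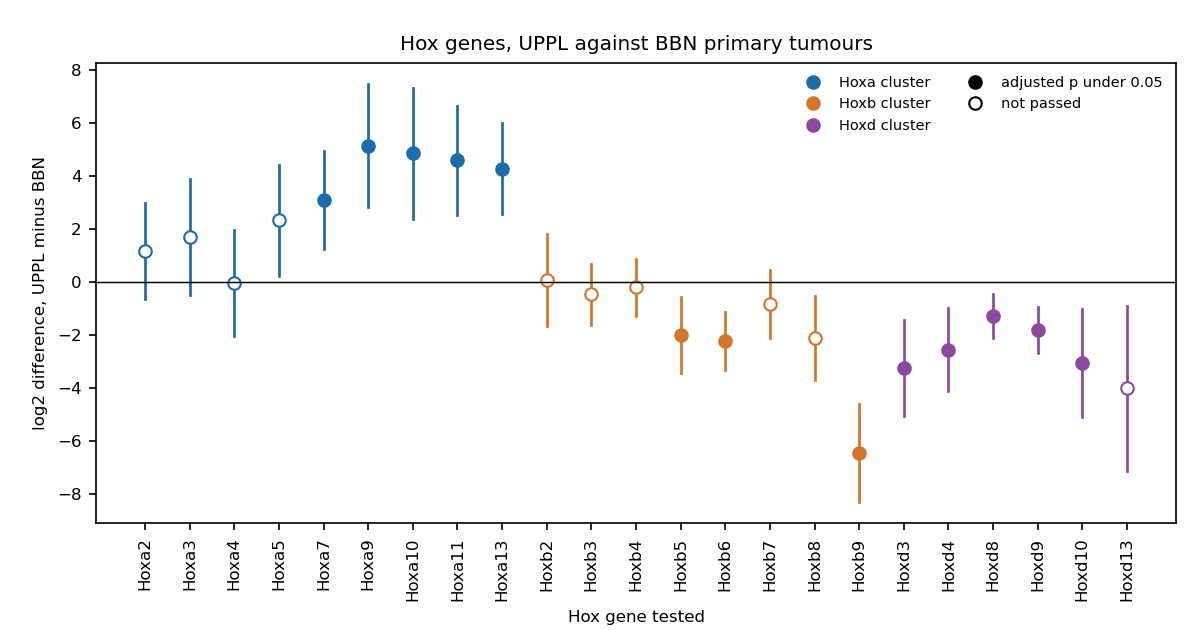
Each point is the difference of log2(value + 1), UPPL minus BBN primary tumours, for 1 of the 23 tested Hox genes, with its 95% confidence interval from limma; filled points have an adjusted p under 0.05 over all genes. Called Hoxa genes lie to the higher side, and called Hoxb and Hoxd genes to the lower side.

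Several limits bear on these calls. With edgeR on recovered reads 11 members passed, and Hoxa9 (2.43, adjusted p = 0.0868), Hoxa7 (1.20, 0.357) and Hoxd4 (-1.76, 0.111) did not, while Hoxb8 did; Hoxa10 (2.56, 0.049) and Hoxa11 (2.60, 0.0375) passed at smaller differences. Under quantile normalization the split was 5 higher and 4 lower, and without the 3 coarse-valued primary libraries Hoxb5, Hoxd3 and Hoxd10 did not pass. Hoxa10, Hoxa11, Hoxa13, Hoxb6, Hoxb9 and Hoxd9 passed in each alternative tried and with any 1 library left out. Of marker lists, 5 of 12 urothelial and epithelial markers were higher in UPPL, 2 of 9 fibroblast, 2 of 7 smooth muscle and 2 of 7 leukocyte markers were lower, and 1 of 6 endothelial markers was higher. No skeletal muscle marker was called by limma or edgeR (2 of 7 tested, 0 at an unadjusted p under 0.05). Of the 7 leukocyte markers 4 were tested. Of all tested genes 5.71% were called higher and 12.8% lower. Fibroblast sums were 364 to 7195 units in UPPL and 743 to 58608 in BBN tumours, and smooth muscle sums 401 to 50196 and 464 to 205698. Their part in the Hox differences was not tested.

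Genes that work with or lie beside the Hox clusters were counted in the same comparison. Of the 9 TALE cofactors (Pbx, Meis and Pknox genes, homeodomain partners of Hox proteins), limma and edgeR called 0, with 2 at an unadjusted p under 0.05. Of 25 Polycomb and trithorax regulators, which keep Hox clusters silent or active, Phc1 alone was called, higher by 0.70 (limma adjusted p = 0.00884). Of 9 protein-coding genes beside the clusters, Hibadh (0.91, 0.000322) and Skap2 (0.58, 0.021), both next to Hoxa, were higher. None of the 5 Cdx and Evx genes passed the filter. Of 42 other homeobox genes 1 was higher and 5 lower, among the lower ones Msx1 (-4.43), Dlx5 (-4.18) and Otx1 (-3.68). Another 20 of the 42 were not tested. Of 12 retinoic acid genes, a pathway that activates Hox genes in the embryo, 2 were lower, among them Rara (-1.03). Counted over tested genes, 6 of 22 other homeobox genes, 2 of 10 retinoic acid genes and 2 of 7 genes beside the clusters were called. Of all tested genes 18.5% were called.

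Of the non-coding genes of the clusters 2 were in the table and 1 was tested. Hoxa11as, the antisense partner of Hoxa11, had 510 ± 241 units in UPPL and 146 ± 220 in BBN primary tumours (SD, n = 9 and 11) and was higher by 3.84 (SE 0.972, limma adjusted p = 0.00931), though edgeR did not call it. The sources used here do not say whether counting used strand, so reads of Hoxa11 and Hoxa11as may not be separable, and the same holds for overlapping transcripts within the clusters.

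The line-derived tumours allow the models to be compared in tumours grown from 1 line each. The 3 pairwise comparisons share their libraries and are not independent. Of the 39 members 27 were tested and 12 were not. Hoxa11 passed the filter on low values only through the UPPL1541 tumours, the group in which it is high, so its p-values here are conditioned on its being high there.

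Against BBN963 tumours, UPPL1541 tumours had higher values of 6 Hoxa genes. limma called 7 members higher (21.4% of 14604 tested genes were called higher) and 3 lower (7.37%). Hoxa9, Hoxa10, Hoxa11 and Hoxa3 were listed at 0 in both BBN963 tumours. In the 4 UPPL1541 tumours Hoxa10 had 675 to 947 units (823 ± 113, SD, n = 4), Hoxa11 447 to 763 (561 ± 142), Hoxa9 343 to 406 (375 ± 26.3) and Hoxa3 39.7 to 86.0 (64.1 ± 19.1). All 4 genes passed, with limma adjusted p = 1.01e-07 for Hoxa10, 7.79e-06 for Hoxa11, 0.00119 for Hoxa9 and 0.000315 for Hoxa3, and no fold is given because one group is at 0. Hoxa7 (178 ± 34.3 against 26.2 ± 0.647 units) and Hoxa4 (42.3 ± 8.58 against 4.29 ± 6.07) also passed, but Hoxa7 did not when any 1 library was left out, nor Hoxa4 without BBN963 tumour 1 or any 1 UPPL1541 tumour.

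Among Hoxb genes, Hoxb8 was 59.7 to 114 units in UPPL1541 and 425 and 449 in BBN963 tumours, without overlap. It fell by 2.45 (SE 0.435, limma adjusted p = 0.00232). Hoxb6 (43.3 ± 33.3 against 272 ± 163 units) and Hoxb3 (107 ± 34.0 against 343 ± 40.2) also fell. Hoxb3 did not pass without BBN963 tumour 1 (adjusted p = 0.085) and Hoxb6 without BBN963 tumour 2 (0.148). Hoxb9 went the other way from the primary tumours and did not pass: 195 ± 65.1 against 84.1 ± 59.6 units, a log2 difference of 1.35 (SE 0.548, limma adjusted p = 0.0872). The seventh gene that was higher, Hoxb13, had 34.6, 31.3, 17.4 and 31.0 units in UPPL1541 tumours and was listed at 0 in both BBN963 tumours (limma adjusted p = 0.00017). No Hoxc or Hoxd gene was called.

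MB49 tumours had low Hox values, with sums of 1255 to 1719 units against 3574 to 3952 in UPPL1541 and 2575 and 3968 in BBN963 tumours. Against MB49, limma called 12 members in UPPL1541 tumours (49.9% of tested genes were called), 10 higher (27.3%) and 2 lower (22.6%). Hoxa11 was listed at 0 in all 4 MB49 tumours (limma adjusted p = 9.56e-08). Hoxa10 was present in MB49 at 254 ± 65.5 units and was higher in UPPL1541 by 1.71 (SE 0.286, limma adjusted p = 0.000485). Hoxa9, Hoxa7 and Hoxa4 were higher by 4.38, 4.04 and 2.95, Hoxb2 by 3.46, Hoxb4 by 3.04 and Hoxb8 by 1.38. In the Hoxd cluster Hoxd9 was 187 ± 55.7 against 23.6 ± 12.6 units and higher by 3.09 (SE 0.511), and Hoxd8 210 ± 48.8 against 42.8 ± 17.3 and higher by 2.33 (SE 0.365). Among the lower members, Hoxb13 was 165, 160.5, 207 and 224 units in the MB49 tumours, above every UPPL1541 tumour, and was lower in UPPL1541 by -2.71 (SE 0.446, limma adjusted p = 0.000434). Under quantile normalization Hoxb8 did not pass (0.73, adjusted p = 0.146).

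Between BBN963 and MB49 tumours 8 members were higher in BBN963 (15.8% of tested genes) and 6 lower (26.1%). The higher ones were Hoxb genes of positions 2, 3, 4, 6, 7 and 8 with Hoxd8 and Hoxd9. Hoxb8 was 425 and 449 units in BBN963 and 22.4 to 36.2 in MB49, higher by 3.83 (SE 0.435, limma adjusted p = 4.16e-05), and Hoxb2 was 374 ± 18.9 against 11.9 ± 8.11, higher by 5.11 (SE 0.642, limma adjusted p = 8.77e-05). Hoxb7 did not pass without BBN963 tumour 2 (0.38, adjusted p = 0.357). The lower ones were Hoxa2, Hoxa3, Hoxa5, Hoxa9, Hoxa10 and Hoxb13, of which all but Hoxa5 were listed at 0 in both BBN963 tumours. With the tumour number as a block, Hoxa5 and Hoxa9 did not pass. Hoxc6, Hoxc8 and Hoxc9 were tested in the 3 pairwise comparisons and passed in none.

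Markers of other cells were read in the same tumours. Leukocyte marker sums were 2570 to 4380 units in UPPL1541, 2005 and 2207 in BBN963 and 7008 to 8825 in MB49 tumours, and fibroblast sums 80937 to 393337, 89371 and 117539, and 15888 to 114851. Skeletal muscle sums were 16.1 to 673 units in UPPL1541, 29.2 and 8148 in BBN963 and 4599 to 14907 in MB49 tumours, and all 7 of these markers were lower in UPPL1541 than in MB49. Their part in the Hox differences was not tested. Of the 9 TALE cofactors, 3 were higher in UPPL1541 than BBN963 tumours, among them Meis1 (1358 ± 88.9 against 312 ± 52.7 units, 2.13) and Meis2 (2.26), a share of 33.3% where 28.8% of all tested genes were called. Against MB49, 4 were higher and 2 lower in UPPL1541 (66.7%, beside 49.9% of all genes), and 4 higher and 3 lower in BBN963 (77.8%, beside 41.9%), where edgeR called 5. Hoxa11as was listed at 0 in all BBN963 and MB49 tumours and was 360 ± 78.3 units in UPPL1541 tumours, the same pattern as Hoxa11.

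Tumours grown from the lines were next compared with primary tumours of the same model. In the UPPL model 32 members were tested, and limma called 4 higher in line-derived tumours (20.5% of 15229 tested genes) and 1 lower (5.98%). These 5, picked by their adjusted p, were without overlap between the 4 line-derived and 9 primary tumours, though narrowly for Hoxc8 (5.95 against 4.78 units). How many of all tested genes were without overlap was not counted. Hoxb9 was 281, 123, 190 and 186 units in the line-derived tumours and at most 23.5 in the primary tumours, and rose by 5.13 (SE 1.11, limma adjusted p = 0.00117). Hoxb13 and Hoxc6 were listed at 0 in all 9 primary tumours. Hoxb13 was 28.6 ± 7.64 units in the line-derived tumours (limma adjusted p = 0.0033), and Hoxc6 was 28.7, 3.91, 11.2 and 47.6 units (limma adjusted p = 0.00106). Hoxc8 was 52.6, 14.3, 81.9 and 5.95 units in line-derived tumours. In the primary tumours it was 4.78 in UPPL1541 and 0 in the other 8 (log2 difference 4.43, SE 0.784, limma adjusted p = 0.000163). In this fit, which also holds the BBN tumours, Hoxc8 passed the filter on low values only through line-derived tumours. Its p-value is conditioned on its being high there.

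Hoxa13 was the gene that fell. It was 77.9 to 616 units in primary tumours and 1.19, 0, 0 and 0 in the line-derived tumours (log2 difference -7.12, SE 1.04, limma adjusted p = 1.8e-05). Its neighbours did not pass: the log2 differences were -0.69 for Hoxa9 (limma adjusted p = 0.749), -0.66 for Hoxa10 (0.771) and -0.50 for Hoxa11 (0.798). Whether Hoxa13 differed from these genes in its change was not tested. With a pseudocount of 10 the log2 differences moved to -4.12 for Hoxa13, 1.92 for Hoxb13, 1.51 for Hoxc6 and 1.89 for Hoxc8, and all 4 still passed.

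All 9 fibroblast markers were higher in UPPL1541 line-derived than in UPPL primary tumours (sums 80937 to 393337 against 364 to 7195 units), as were 5 of 7 leukocyte markers, while 6 of 12 urothelial and epithelial markers were lower and 2 higher. Among smooth muscle markers limma and edgeR called 0 of 7, with 0 at an unadjusted p under 0.05. The part of fibroblasts in the Hoxc6 and Hoxc8 differences was not tested. Meis1, a TALE cofactor, rose as well (343 ± 175 units in primary and 1358 ± 88.9 in line-derived tumours, 2.14, limma adjusted p = 0.00311). Of 42 other homeobox genes 35 were tested, of which 19 were higher and 2 lower. Of all tested genes 26.5% were called.

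**Figure D5:**
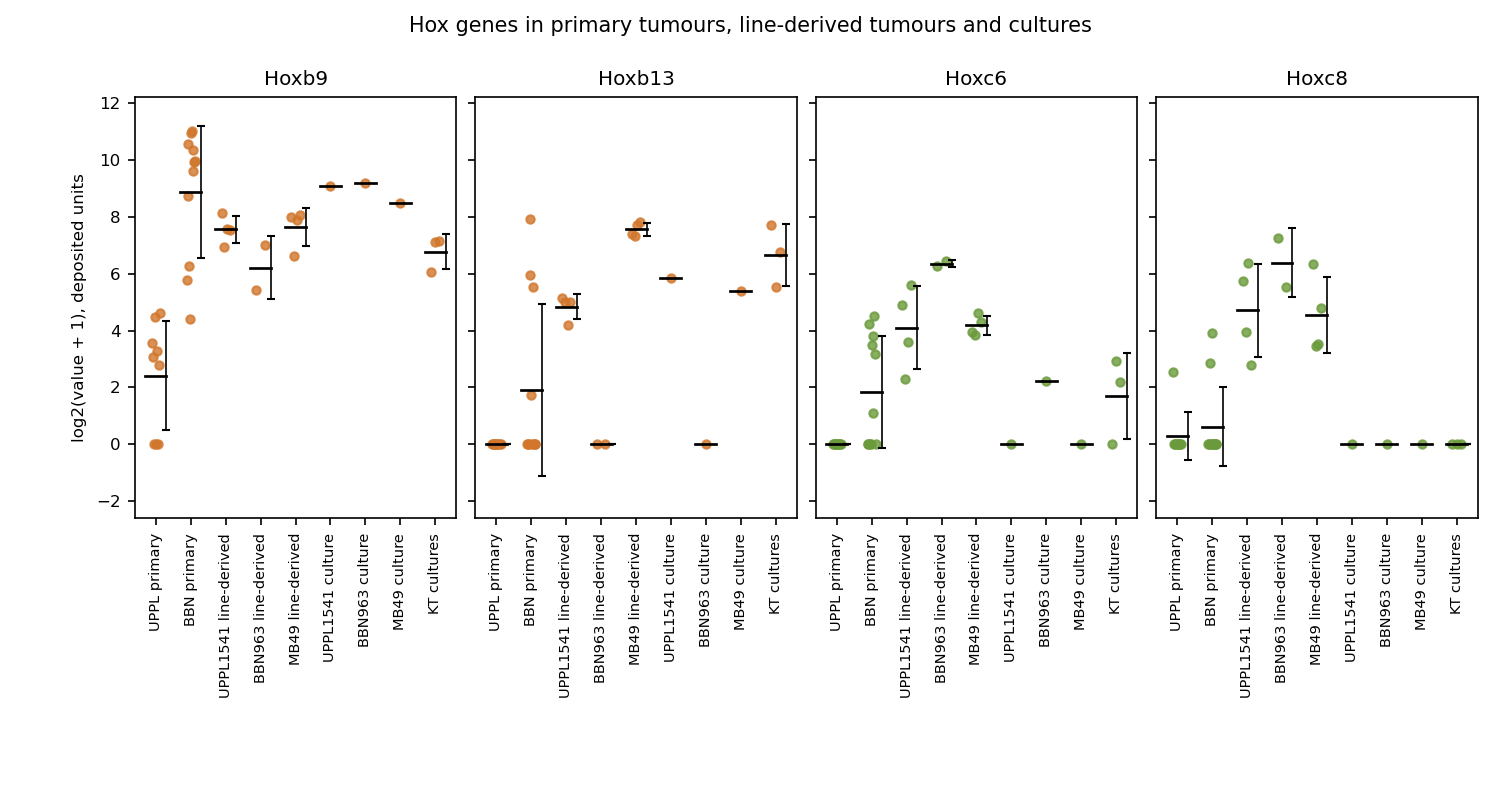
Each point is 1 library, with log2(value + 1) of the deposited units on the vertical axis, for Hoxb9, Hoxb13, Hoxc6 and Hoxc8 in the 9 groups; lines are group means and bars SD of the log2 values. Hoxc6 and Hoxc8 are above 0 in all 10 line-derived tumours. In the cultures Hoxc8 is at 0 and Hoxc6 at most 6.60 units, while Hoxb9 is higher in the 3 cultures of the lines than in any line-derived tumour.

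In the BBN model, with 2 line-derived tumours, 6 members were called against primary tumours (7.76% of tested genes were called), 4 higher (2.09%) and 2 lower (5.67%). Hoxc8 was 150 and 45.3 units in the line-derived tumours and at most 14.1 in the 11 primary tumours (log2 difference 5.77, SE 1.00, limma adjusted p = 0.00055). The fit and filter were those of the UPPL step, so this p-value too is conditioned on Hoxc8 being high in line-derived tumours. Hoxc6 was 76.1 and 85.8 units against at most 21.7 (4.51, SE 1.12, limma adjusted p = 0.0127). Hoxc9 overlapped between groups (3.98, limma adjusted p = 0.0359). Hoxa11, listed at 0 in both, and Hoxd4 (-4.74, limma adjusted p = 0.0277) were lower. Hoxa11 was also at 0 in the primary tumour BBN963, numbered like the line. Without BBN963 tumour 1, a coarse-valued library, 0 members passed (8 at an unadjusted p under 0.05), with Hoxc8 at 4.92 (adjusted p = 0.0671). Without BBN963 tumour 2, 2 members passed, and edgeR on recovered reads called Hoxc8 alone (13 at an unadjusted p under 0.05).

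In BBN primary tumours Hoxc8 was above 0 only in BBN969 (14.1 units) and BBN964 (6.30), the tumours with the highest fibroblast marker sums (51234 and 58608 units). In BBN963 line-derived tumours the fibroblast sums were 89371 and 117539 units, and 1 of 9 fibroblast markers was called higher than in primary tumours. The part of fibroblasts in these values was not tested.

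The step from primary to line-derived tumours was then compared between the models, as the difference of the 2 log2 differences. limma called 2 members (9.22% of tested genes were called), both with the larger step in UPPL (8.16%, against 1.06% in the other direction). Hoxb9 rose by 5.13 in UPPL and had a log2 difference of -2.66 in BBN that did not pass (limma adjusted p = 0.264), so that the steps differed by 7.79 (SE 1.80, limma adjusted p = 0.00857). Hoxb13 was 0 in UPPL primary tumours and present in UPPL1541 tumours. In BBN it was above 0 in 4 primary tumours and at 0 in both line-derived tumours. It was also at 0 in the primary tumour BBN963, numbered like the line. The steps of Hoxb13 differed by 6.76 (SE 1.91, limma adjusted p = 0.027). Without BBN963 tumour 1 neither passed (Hoxb9 7.01, adjusted p = 0.103; Hoxb13 6.76, adjusted p = 0.148), without BBN963 tumour 2 Hoxb13 did not (0.0975), nor without UPPL1541 tumour 1 (0.0516). The steps of Hoxa13 (-4.00, adjusted p = 0.131), Hoxc6 (-0.41, 0.884) and Hoxc8 (-1.34, 0.536) did not differ at this threshold.

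In the comparison of the 10 line-derived tumours with the 3 cultures of their lines, with the line as a factor, 26 members were tested. limma called 2 higher in tumours (20.1% of 14321 tested genes) and 1 lower (8.99%). Hoxc8 was listed at 0 in all 3 cultures and ran from 5.95 to 150 units in the 10 tumours (limma adjusted p = 0.000922). Hoxc6 ran from 3.91 to 85.8 units in the tumours, and was 3.65 in the BBN963 culture and 0 in the other 2 (4.14, SE 0.683, limma adjusted p = 0.000656). Both genes were above the 3 cultures of the lines in all 10 tumours. For Hoxc6 this was narrow, with 3.91 units in UPPL1541 tumour 2 against 3.65 in the BBN963 culture. The KT1970 culture, not in this comparison, had Hoxc6 at 6.60 units. The number of all tested genes without such overlap was not counted. Hoxc6 and Hoxc8 also passed the filter on low values only through the tumours, so their p-values are conditioned on their being high there.

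Hoxb9 was the member that fell. It was 542, 582 and 358 units in the UPPL1541, BBN963 and MB49 cultures and 41.9 to 281 in the 10 tumours, all below the cultures (-1.71, SE 0.463, limma adjusted p = 0.0145). Without the BBN963 culture it did not pass (-1.19, adjusted p = 0.0912), and under quantile normalization 2 members were higher and 5 lower. Hosts contribute other cells to a tumour, and their markers moved with this comparison: 9 of 9 fibroblast, 7 of 7 smooth muscle, 6 of 6 endothelial, 5 of 7 leukocyte and 3 of 7 skeletal muscle markers were higher in tumours. The fibroblast sums were 10955, 999 and 1007 units in the UPPL1541, BBN963 and MB49 cultures and 15888 to 393337 in the tumours. Col3a1 and Lum were listed at 0 in the BBN963 and MB49 cultures, and Dcn and Lum in the UPPL1541 culture. Their part in the Hox differences was not tested. Of the cofactors Meis1 alone was called, higher in tumours by 1.49 (limma adjusted p = 0.00143).

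The cultures, at 1 library each, keep no check on replicates, and their values are a description. The posterior Hoxa genes were present in the UPPL1541 culture, with Hoxa9 at 654 units, Hoxa10 at 955, Hoxa11 at 575 and Hoxa13 at 28.0. All 4 were listed at 0 in the BBN963 culture, in which Hoxb6 (730 units), Hoxb9 (582), Hoxb7 (436), Hoxb2 (416) and Hoxb8 (375) had the highest unscaled values. The MB49 culture had Hoxa9 at 106 units and Hoxa10 at 142, with Hoxa11, Hoxa13, Hoxb2, Hoxd8, Hoxd9 and all 9 Hoxc genes at 0. Hoxa11 and Hoxa13 were at 0 in the MB49 culture and in all 4 MB49 tumours, and the 4 posterior Hoxa genes were at 0 in the BBN963 culture and both BBN963 tumours. In the UPPL1541 line the exception was Hoxa13, at 28.0 units in the culture and at most 1.19 in the tumours.

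The 3 KT cultures carried the posterior Hoxa genes together with Hoxb13. Hoxa10 was 1421, 967 and 656 units in KT1044, KT1970 and KT1975, Hoxa11 was 1048, 737 and 408, Hoxa9 was 742, 523 and 227, and Hoxa13 was 130, 38.5 and 52.4. Their Hoxa share of all Hox signal was 57.3 to 69.4%, beside 50.7% in the UPPL1541, 3.45% in the BBN963 and 34.0% in the MB49 culture. Hoxb13 was 208, 45.1 and 107 units in the KT cultures, 56.0 in the UPPL1541 culture, 40.5 in MB49 and 0 in BBN963. Hoxc8 was listed at 0 in all 6 cultures. No test was made between cultures.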

How the data were processed

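The deposited table holds 1 signal value per gene and library for 36 libraries. Per the submitters' processing notes, the authors used RSEM, SAMtools and Picard 1.64 with the mm9 build; RNA came from RNeasy kits and TruSeq Stranded mRNA libraries, per the labels' protocols. The deposited signal values have a 75th percentile of 1000 over genes above 0. The aligner and the use of strand are not given in the sources used here.

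From these, log2(value + 1) was tested with limma 3.58.1 (variance trend, R 4.3.3), two-sided. Genes entered when they reached 10 units, 1% of the 75th percentile, in at least 9 libraries (primary), 2 (line-derived, with or without primary tumours) or 3 (with cultures). Benjamini-Hochberg adjustment ran over all genes tested, at a threshold of 0.05. Differences on this scale depend on the pseudocount for low genes and for genes listed at 0 in some libraries. For Hoxa9, Hoxa10 and Hoxa11 in primary tumours they were larger than those of edgeR. The 8 comparisons used the groups in the labels, and the line was a factor against cultures. No libraries were identical in 107 replicate pairs (highest r 0.983). Reads were recovered from the value steps (92.0 to 96.3% of values whole within 0.02 over the 36 libraries), giving edgeR 4.0.16 quasi-likelihood counts as an alternative. Other alternatives were a pseudocount of 10, no trend, quantile normalization, no filter or a stricter one, scaling by median of ratios, 1 fit over all libraries and leaving out libraries. The scripts were tested on simulated data.

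Every member could be named, but some items are not reported here. Per-sample values and statistics went to called members with a mean of at least 100 units in the higher group, up to 8 per comparison by size, and to neighbours and paralogues. Low members called (such as Hoxb13, Hoxc6 and Hoxc8) were added after their values were seen. The members and the lists were chosen with earlier results of these data known.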

Additional observations from a re-analysis of the deposited data

Results flagged for a closer look

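Among 26 sets of values (a Hox gene in a group of 4 to 10 libraries, mean at least 100 units), 3 held a library far from the others by Dixon's criterion, which chance flags in about 5% of sets. Hoxb9 was 97.6 units in MB49 line-derived tumour 2 and 237 to 263 in the other 3. Hoxa9 was 1151 units in the primary tumour UPPL1694 and 441 to 708 in the other 8, and the same tumour had the highest Hoxa10 (3237 units). Hoxb4 was 29.2 units in the primary tumour UPPL1595 and 104 to 216 in the other 8, and UPPL1595 is 1 of the 5 coarse-valued libraries and the UPPL tumour with Hoxd13.

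The step from primary to line-derived tumours differed between the UPPL and BBN models for Hoxb9 (7.79, limma adjusted p = 0.00857) and Hoxb13 (6.76, limma adjusted p = 0.027) by the test of the difference itself. Both rest on the 2 BBN963 tumours, and neither passed without BBN963 tumour 1 (adjusted p = 0.103 and 0.148).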

How the results depend on the processing

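No Hox gene changed direction past the threshold under any alternative or left-out library. For the values of single members, 2066 results under the alternatives kept their direction and side of the threshold, 42 became called and 72 lost the call; with 1 library left out these numbers were 2855, 33 and 88. Counts of called members moved by over 1.5 times in these cases. With 1 fit over all libraries 5 members were called between UPPL1541 and BBN963 tumours (10 as reported) and 7 between UPPL1541 and MB49 (12). In the BBN model, line-derived against primary, edgeR called 1 member, and leaving out the coarse-valued libraries called 0 (6 as reported; 7 at an unadjusted p under 0.05). For the model difference in that step, quantile normalization and edgeR each called 1, leaving out the coarse-valued libraries 0 (3 at an unadjusted p), and leaving out primary tumours UPPL1541 and BBN963, numbered like the lines, 4 (2 as reported). Against cultures, quantile normalization called 7 (3 as reported). The cause was not tested, except that leaving out libraries leaves fewer samples. With 1 library left out, called members ranged from 10 to 14 (primary), 8 to 11 (UPPL1541 against BBN963), 10 to 13 (UPPL1541 against MB49), 12 to 14 (BBN963 against MB49), 5 in each case (UPPL line-derived against primary), 0 to 7 (BBN line-derived against primary), 0 to 4 (model difference) and 2 to 4 (cultures).

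In the primary comparison Hoxb5 did not pass without most single libraries (adjusted p up to 0.076), Hoxd8 did not pass without 1 of 6 libraries (0.0521 to 0.0608) and Hoxd10 without 1 of 9 (0.0542 to 0.0657). Under quantile normalization 5 members were higher and 5 lower between UPPL1541 and BBN963 tumours, and 9 and 4 between UPPL1541 and MB49. Scaling moved the median of all genes: it was -0.19 in the primary comparison as deposited and -0.039 with quantile normalization, and 0.55 and 0.070 for the model difference. The tumour number as a replicate block gave 9, 12 and 12 called members in the 3 pairwise comparisons of line-derived tumours, where Hoxb3 (adjusted p = 0.0564), Hoxa5 and Hoxa9 did not pass. Same-numbered tumours correlated at -0.093 to 0.066 over 8 pairs, so the numbers are not treated as pairing the samples. Read depth is an estimate from the value steps. The filter kept all 9 Hoxc genes from the primary comparison. It let 3 of them into the comparisons among line-derived tumours and with cultures. Into those of line-derived with primary tumours it let 6.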
